A study of Capra hircus with 9 samples.

Results

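The 4 mature arms of a pair of neighbouring goat microRNA genes, chi-miR-30a-5p, chi-miR-30a-3p, chi-miR-30f-5p and chi-miR-30f-3p, were described in mammary tissue over 3 stages of the reproductive cycle. They are 4 of the 1359 mature miRNAs in the count table, of which 696 passed the filter on low counts, and all 4 passed it. The 4 arms were chosen by their measured levels over the stages, the ratios between their arms and the closeness of their replicates, so these values are given below as a description and carry no test. The table also held 7 other miR-30 arms, chi-miR-30b-5p, chi-miR-30b-3p, chi-miR-30c-5p, chi-miR-30c-3p, chi-miR-30d-3p, chi-miR-30e-5p and chi-miR-30e-3p, which served for comparison. The 5p arm of mir-30d was not listed and so was not analysed here.

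The tissue came from 9 healthy Laoshan dairy goats of the third parity with a mean age of 4 years, and each goat gave 1 small RNA library. Late lactation (LL) was sampled at 240 days postpartum, the dry period (DP) at 300 days postpartum and late gestation (LG) at 140 days after mating, with 3 goats per stage. The goats differed between stages, and no treatment or genetic change was applied. Pieces of whole gland were sequenced, so fewer cells of a type and less RNA per cell cannot be told apart in any level given here. Library totals ranged from 16451436 to 24616668 reads in LL, from 13672653 to 23392916 in DP and from 21301913 to 34378995 in LG.

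A microRNA gene is transcribed as a hairpin, and either side of the hairpin can end up as a short mature RNA, called the 5p or the 3p arm. The arm that is loaded into an Argonaute protein pairs with messenger RNAs through its seed, a short stretch near its 5′ end, and lowers their stability or translation. The miR-30 family has several genes whose 5p arms share 1 seed, while the 3p arms do not carry that seed. The family is abundant in epithelial tissues and is known for effects on cell adhesion, differentiation and lipid metabolism. The mammary epithelium itself grows in gestation, secretes milk in lactation and regresses when milking stops. The mature sequences are not printed, since the reference used here lists gene positions only.

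On the goat assembly ARS1.2, MIR30F lies on chromosome 14 from base 92162547 to 92162630 and MIR30A on the same chromosome from 92200094 to 92200200. Between them are 37463 bases, and neither overlaps another annotated gene. The nearest protein-coding genes are OGFRL1, which is 77804 bases before MIR30F, and RIMS1, which is 556164 bases after MIR30A. No other annotated miRNA gene lies within 50 kb of the pair. The other listed family members sit elsewhere. MIR30B and MIR30D are 4360 bases apart inside the long noncoding RNA gene LOC108637533, and 17216689 bases separate MIR30D from MIR30F on chromosome 14. MIR30E and MIR30C are 3015 bases apart inside NFYC on chromosome 3.

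All 4 arms were highest in LG, intermediate in LL and lowest in DP. Levels are counts scaled to a common library size (CPM) after scaling the libraries by TMM, a factor that lines up the bulk of the miRNAs between libraries. Chi-miR-30a-5p, the most abundant of the 4, had 51262, 43151 and 46125 CPM in the LG libraries, against 21037, 16805 and 22060 in those of LL and 3315, 3555 and 5776 in those of DP. It ranked 3rd of all listed miRNAs in every LG library, 10th to 12th in LL and 26th to 34th in DP. The highest DP value, in replicate 3, was still below the lowest LL value. The stage means were 46846 ± 4103 CPM for LG, 19967 ± 2786 CPM for LL and 4215 ± 1357 CPM for DP (SD, n = 3 each), so LG was 11.1-fold and LL 4.74-fold above DP.

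Chi-miR-30a-3p comes from the opposite side of the same hairpin. It had 1476, 1121 and 1170 CPM in the LG libraries, against 488, 585 and 643 in those of LL and 157, 196 and 145 in those of DP. The libraries again fell into 3 separate ranges, with means of 1256 ± 192, 572 ± 78.0 and 166 ± 26.8 CPM (SD, n = 3 each) and a fold of 7.57 between LG and DP. Its rank fell from between 47th and 54th in LG to between 113th and 127th in DP.

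Chi-miR-30f-5p had 2576, 2137 and 1909 CPM in the LG libraries, against 855, 1151 and 799 in those of LL and 402, 484 and 444 in those of DP. The order of the stages was the one seen for the mir-30a arms, but the span was smaller. LG was 4.98-fold above DP, from 2207 ± 339 CPM to 444 ± 41.0 CPM, with LL at 935 ± 189 CPM (SD, n = 3 each). Chi-miR-30f-3p, the least abundant of the 4, had 198, 166 and 156 CPM in the LG libraries, against 64.4, 61.3 and 67.5 in those of LL and 18.0, 13.0 and 18.0 in those of DP. Its means of 173 ± 22.2, 64.4 ± 3.11 and 16.3 ± 2.86 CPM (SD, n = 3 each) put LG 10.6-fold above DP. Even its lowest value rested on 283 reads. Counting alone would have given it a coefficient of variation of 5.53% in DP, where 17.5% was measured, and 3.16% in LL, where 4.83% was measured.

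**Figure D1:**
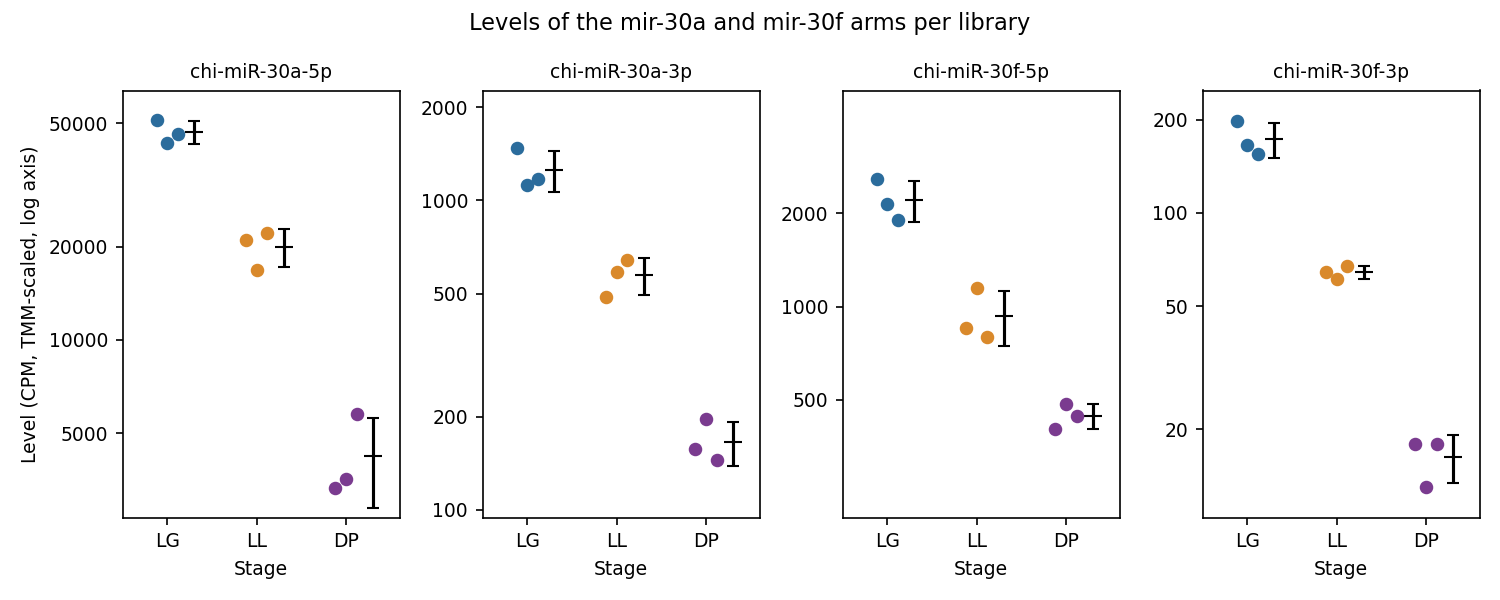
Levels of the 4 arms in each library, in CPM scaled by TMM on log axes that span the same fold in every panel. Points are libraries (goats), and bars show the mean and SD of 3 libraries per stage. In every panel the LG points lie above the LL points and the LL points above the DP points.

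For each of the 4 arms the libraries of the 3 stages did not overlap in the order DP, LL, LG. Among all 696 tested miRNAs, 14 (2.01%) had this order without overlap, the 4 arms among them, and nothing is read from this since the arms were chosen for it. Under 3 other scalings (upper quartile, library size only, and TMM with chi-miR-148a-3p left out) the background share was 3.16%, 3.3% and 3.74%, and the 4 arms kept the order under each. Chi-miR-148a-3p, the most abundant miRNA, made up 39.4 to 44.6% of the reads in LG, 48.4 to 59.4% in LL and 8.81 to 10.8% in DP, so its share moved with the stages. Of the 7 other miR-30 arms, none had this order under TMM, while chi-miR-30e-5p had it with library size only and chi-miR-30e-3p with chi-miR-148a-3p left out.

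By level, not by time, the arms stepped down from LG to LL and from LL to DP. Under TMM the arms had similar estimates between LG and LL. The log2 fold changes in LL vs. LG were −1.23 (SE 0.25) for chi-miR-30a-5p, −1.13 (SE 0.22) for chi-miR-30a-3p, −1.24 (SE 0.22) for chi-miR-30f-5p and −1.43 (SE 0.24) for chi-miR-30f-3p. Between LL and DP their estimates were more spread. In DP vs. LL the log2 fold change was −2.24 (SE 0.25) for chi-miR-30a-5p, −1.79 (SE 0.23) for chi-miR-30a-3p and −1.98 (SE 0.25) for chi-miR-30f-3p, but −1.08 (SE 0.22) for chi-miR-30f-5p. With libraries scaled by size only, the values of chi-miR-30a-5p, chi-miR-30a-3p, chi-miR-30f-5p and chi-miR-30f-3p were −1.83, −1.71, −1.79 and −2.01 between LL and LG, and −1.87, −1.43, −0.74 and −1.60 between DP and LL. The step between LL and DP was the larger one for 3 of the 4 arms under TMM, and that between LG and LL for 3 of the 4 with library size only.

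Across the whole span, DP vs. LG, the log2 fold changes were −3.47 (SE 0.27), −2.92 (SE 0.24), −2.32 (SE 0.23) and −3.41 (SE 0.26) for chi-miR-30a-5p, chi-miR-30a-3p, chi-miR-30f-5p and chi-miR-30f-3p. Counted from the lowest of the 696 tested, these stood 7th, 10th, 25th and 8th. The median over the 4 arms was −3.16 (DP vs. LG), −1.88 (DP vs. LL) and −1.23 (LL vs. LG), beside medians over all tested miRNAs of 0.18, 0.12 and 0.17. Scaling by library size only moved the medians of all tested miRNAs to −0.02, 0.49 and −0.42.

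Of the 7 other arms, chi-miR-30e-5p and chi-miR-30d-3p came level with chi-miR-30f-5p in DP vs. LL. The median log2 fold change of the 7 was −0.10 between DP and LG. One of the 7, chi-miR-30e-5p, was called lower, at −1.07 (SE 0.32, edgeR quasi-likelihood test, Benjamini-Hochberg adjusted p = 0.0235). To be called, a miRNA needed both an absolute log2 fold change above 1 and an adjusted p under 0.05, which 69 of 696 tested miRNAs (9.91%) met in that direction. In DP vs. LL, 2 of the 7 were called lower against a background of 11.6%. These were chi-miR-30d-3p at −1.0 (SE 0.25, edgeR adjusted p = 0.0121) and again chi-miR-30e-5p at −1.07 (SE 0.32, edgeR adjusted p = 0.0294).

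Both DP vs. LL calls were lost with library size only, at −0.62 for chi-miR-30d-3p and −0.67 for chi-miR-30e-5p. Without DP replicate 2 the chi-miR-30e-5p values were −0.86 in DP vs. LG and −0.68 in DP vs. LL, and neither was called, nor was chi-miR-30d-3p at −0.85. The DP vs. LG call of chi-miR-30e-5p was also lost without LG replicate 1 (−1.15) or 2 (−1.13), and with only DP and LG in the fit (−1.08). Its DP vs. LL call was lost without any 1 of the 3 LL or 3 LG libraries, at −1.11 to −0.93. That of chi-miR-30d-3p was lost without LL replicate 1 (−0.95), without LL replicate 3 (−0.998) or without any 1 LG library (−0.97 each). Chi-miR-30b-5p, at −0.79 in DP vs. LL (SE 0.28, edgeR adjusted p = 0.0518), was called lower only without DP replicate 2, at −1.01.

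In LL vs. LG edgeR called none of the 7 arms in either direction, against a background of 12.8%. At an unadjusted p under 0.05 there were 2, chi-miR-30b-5p and chi-miR-30b-3p, with log2 fold changes of 0.64 (SE 0.28) and 0.76 (SE 0.29), both above 0. DESeq2 and limma-voom called 0 of 7 as well. The most abundant of the other 5p arms, chi-miR-30c-5p, differed by 0.13 on the log2 scale (95% interval −0.27 to 0.53) between DP and LG, by −0.19 (−0.59 to 0.21) between DP and LL and by 0.32 (−0.08 to 0.72) between LL and LG.

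**Figure D2:**
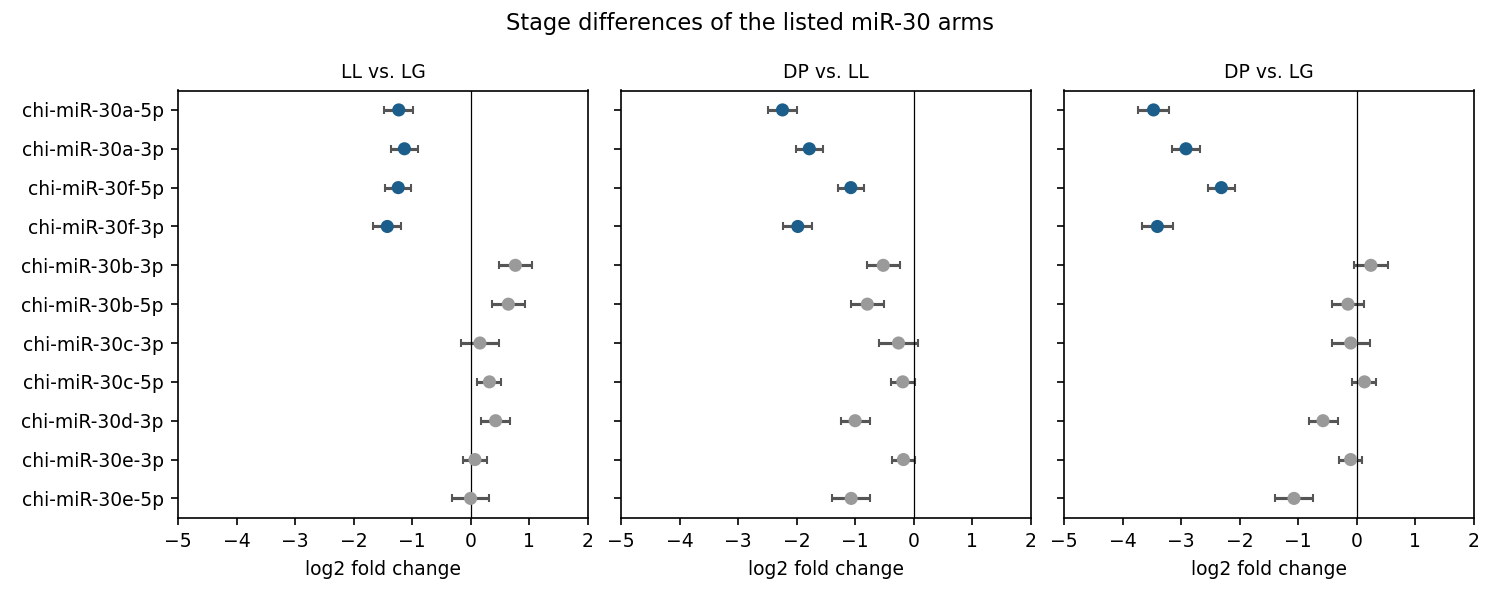
Log2 fold changes of the 11 listed miR-30 arms from the edgeR fit, with 1 panel per pair of stages, with bars of 1 standard error. The mir-30a and mir-30f arms (blue) lie between −1.43 and −1.13 (LL vs. LG), −2.24 and −1.08 (DP vs. LL), and −3.47 and −2.32 (DP vs. LG), and the 7 other arms (grey) between −1.07 and 0.76 over the 3 panels. In DP vs. LL chi-miR-30f-5p (−1.08) is level with chi-miR-30e-5p (−1.07) and chi-miR-30d-3p (−1.0).

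Summed over chi-miR-30b-5p, chi-miR-30c-5p and chi-miR-30e-5p, the other 5p arms had a mean of 3447 ± 381 CPM in LG, against 4232 ± 133 in LL and 3006 ± 332 in DP (SD, n = 3 each). The stages differed (exact permutation test over the 280 splits, one-sided, p = 0.0143, smallest possible 0.00357), with LL highest and DP lowest. With library size only LG was highest and the exact permutation p was 0.0679. Without LL replicate 2 the exact permutation p was 0.0643, and without DP replicate 2 it was 0.0536. The highest stage mean of the sum, in LL, was 1.41-fold the lowest, in DP.

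Shares of reads within a library do not depend on how libraries are scaled. Among the reads of the 5 listed miR-30 5p arms, chi-miR-30a-5p made up 89.1, 88.2 and 90.4% in LG, 80.6, 75.3 and 81.8% in LL, and 52.0, 50.3 and 60.5% in DP. It was the majority of these listed reads in all 9 libraries, and its share stepped down with no overlap between stages. Chi-miR-30d-5p was not listed, so its reads are missing from these totals, and a majority of all miR-30 5p reads cannot be read from them. Chi-miR-30c-5p gained the most, with 3.40 ± 0.467% in LG, 9.0 ± 2.30% in LL and 26.0 ± 3.72% in DP (SD, n = 3 each). Chi-miR-30f-5p stayed a minor part, at 4.2 ± 0.397%, 3.80 ± 1.19% and 5.94 ± 1.14% (SD, n = 3 each).

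On the 3p side the leading arm changed. Chi-miR-30a-3p made up 71.3 ± 2.06% of the reads of the 6 listed 3p arms in LG, 57.6 ± 2.68% in LL and 34.3 ± 2.06% in DP (SD, n = 3 each). Chi-miR-30e-3p took 17.1 ± 1.69%, 31.6 ± 1.89% and 57.1 ± 1.28% (SD, n = 3 each), so it outnumbered chi-miR-30a-3p in every DP library. Chi-miR-30f-3p went from 9.86 ± 0.408% in LG through 6.53 ± 0.570% in LL to 3.45 ± 0.933% in DP (SD, n = 3 each). The 95% Wilson intervals of these shares reached at most 0.307 percentage points to either side on the 5p side and 1.1 on the 3p side. They leave out all error but that of counting, since reads were counted without molecular identifiers.

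**Figure D3:**
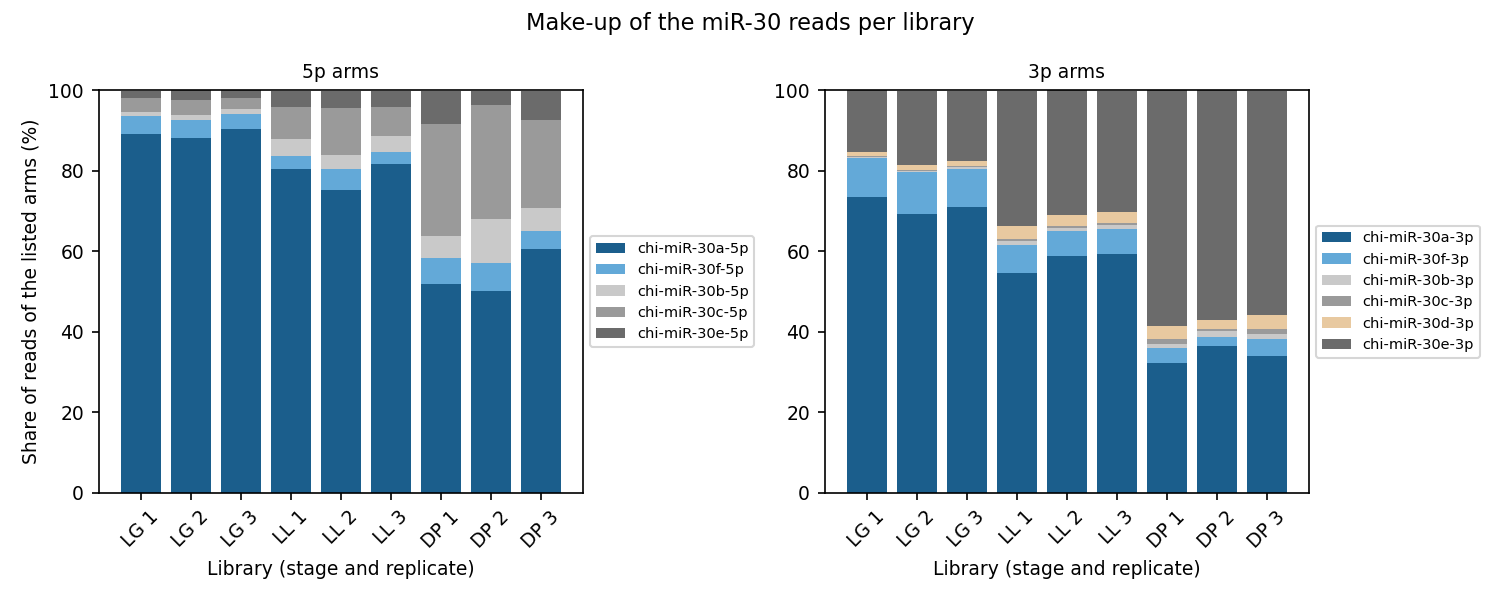
Share of each listed miR-30 arm among the reads of the 5p arms (left) and of the 3p arms (right) in each library, in percent. Blue parts are the mir-30a and mir-30f arms. Chi-miR-30a-5p stays above 50% of the listed 5p reads in every library, and chi-miR-30e-3p (dark grey) is the largest part of the 3p reads in the 3 DP libraries. Chi-miR-30d-5p was not listed and is not in the shares.

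As a sum, the 4 arms were 93.0 ± 0.759% of all listed miR-30 reads in LG, 82.3 ± 2.24% in LL and 58.8 ± 4.51% in DP (SD, n = 3 each). Of all miRNA reads in a library they took 6.08 ± 0.469% in LG, 1.72 ± 0.0515% in LL and 0.50 ± 0.135% in DP (SD, n = 3 each). All 11 listed miR-30 arms took 6.53 ± 0.456%, 2.09 ± 0.0695% and 0.842 ± 0.160% (SD, n = 3 each).

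The ratio between the arms of a hairpin also compares counts within a library. Mir-30a gave 34.7, 38.5 and 39.4 reads of the 5p arm per read of the 3p arm in LG, 43.1, 28.7 and 34.3 in LL, and 21.1, 18.1 and 39.9 in DP. The geometric means were 37.5, 34.9 and 24.8. In DP, replicate 3 lay within the LL values and just above those of LG, while replicates 1 and 2 lay below all of them, so the stages overlapped. Without DP replicate 3 the DP mean was 19.6.

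Mir-30f behaved otherwise. Its 5p arm had 13.0, 12.9 and 12.3 reads per 3p read in LG and 13.3, 18.8 and 11.8 in LL, but 22.4, 37.2 and 24.7 in DP. All 3 DP libraries were above all 6 others, and the geometric mean of 27.4 in DP was 2.16-fold that of LG (12.7) and 1.91-fold that of LL (14.3). The 3p arm, which had 283 to 412 reads in the DP libraries, was the one that fell further.

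The 5p arms of the 2 hairpins were also set against each other. There were 19.9, 20.2 and 24.2 reads of chi-miR-30a-5p per read of chi-miR-30f-5p in LG, 24.6, 14.6 and 27.6 in LL, and 8.24, 7.34 and 13.0 in DP. The geometric means were 21.3, 21.5 and 9.23, and no DP library reached the lowest LG or LL value. LL replicate 2 lay nearest to the DP values, and without it the LL mean was 26.1. On the 3p side the ratio of chi-miR-30a-3p to chi-miR-30f-3p moved less, with 7.45, 6.75 and 7.52 in LG, 7.58, 9.54 and 9.52 in LL, and 8.76, 15.1 and 8.05 in DP. Its geometric means of 7.23, 8.83 and 10.2 differed by up to 1.41-fold, and every LL and DP library lay above every LG library.

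**Figure D4:**
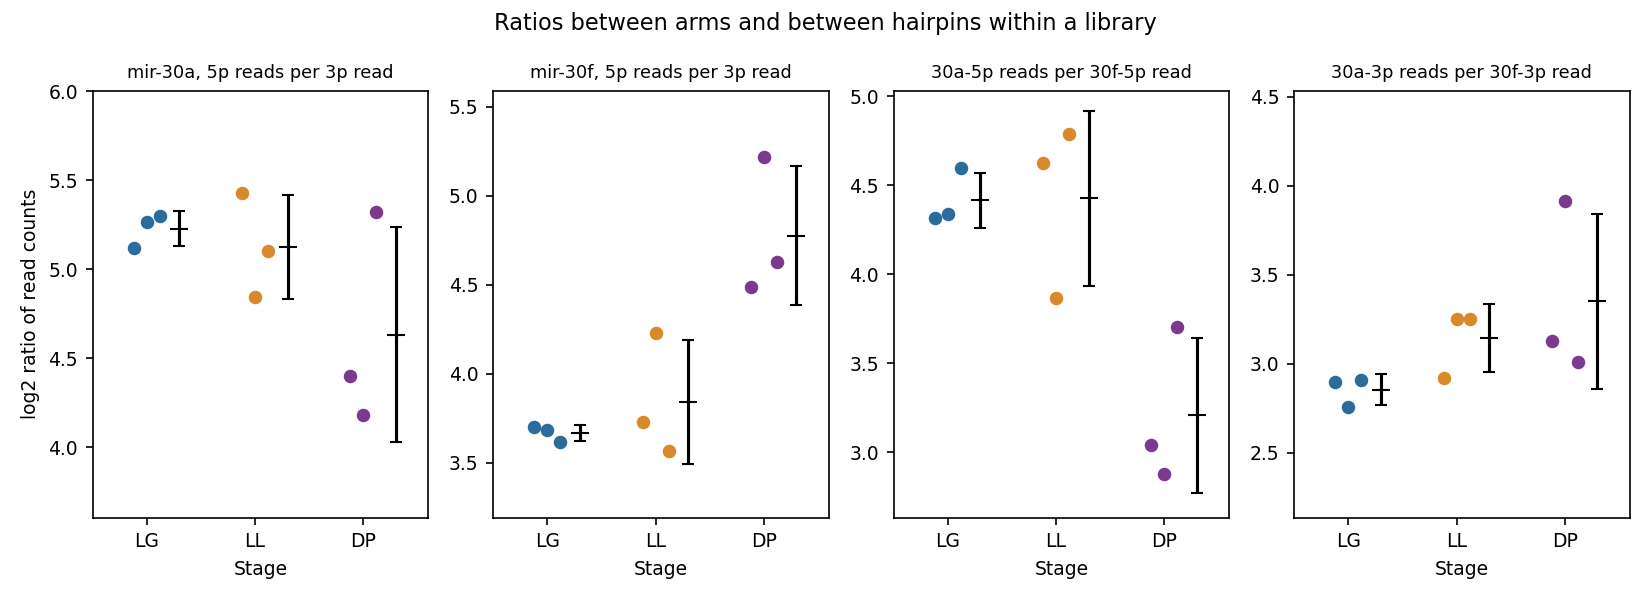
Log2 ratios of read counts within each library for mir-30a (5p to 3p), mir-30f (5p to 3p), chi-miR-30a-5p to chi-miR-30f-5p, and chi-miR-30a-3p to chi-miR-30f-3p. Points are libraries, bars show the mean and SD of 3 libraries per stage, and all panels span the same log2 width. The DP points of mir-30f lie above, and those of the 5p-to-5p ratio below, every LG and LL point.

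Other family hairpins gave arm ratios that the choice of the 4 arms did not use. Mir-30e had geometric means of 3.52 reads of the 5p arm per 3p read in LG, 3.35 in LL and 1.67 in DP, with 1.89, 0.825 and 2.98 in the DP libraries. The exact permutation test over the stages (280 splits, one-sided) gave p = 0.0179, and 0.0536 after Benjamini-Hochberg adjustment over 3 hairpins. Mir-30b, at 125, 114 and 91.4, had an exact permutation p of 0.143 (adjusted 0.214), and mir-30c, at 356, 397 and 436, one of 0.732 (adjusted 0.732). No arm ratio among these 3 hairpins passed the adjusted threshold, and mir-30d could not be included because only its 3p arm was listed.

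Some 5p arms of the family differ from each other in few bases, so some reads may have been counted under a relative. Their part in the levels above was not tested. The counts of near relatives stood as follows. For each read of chi-miR-30f-5p there were 0.772, 0.877 and 0.777 reads of chi-miR-30c-5p in LG, 2.44, 2.26 and 2.49 in LL, and 4.41, 4.16 and 4.67 in DP. For each read of chi-miR-30a-5p there were 0.0197 to 0.0263 reads of chi-miR-30e-5p in LG, 0.0492 to 0.0581 in LL and 0.0714 to 0.162 in DP. No other miRNA in the table had the same counts as any of the 4 arms, and the closest row of each differed from it by at least 59.1% in some library.

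The values of all replicates were part of how the arms were chosen, so their spread is a description. The coefficient of variation of chi-miR-30a-5p was 8.76% in LG, 14% in LL and 32.2% in DP, that of chi-miR-30a-3p was 15.3, 13.6 and 16.2%, that of chi-miR-30f-5p was 15.3, 20.2 and 9.23%, and that of chi-miR-30f-3p was 12.8, 4.83 and 17.5%. The medians over the 370 tested miRNAs with a mean count of at least 100 were 14.9, 17.4 and 34.5%. In DP, where goats differed most over all miRNAs, 3 of the 4 arms were at or under 17.5%, and chi-miR-30a-5p was near the median. The biological coefficient of variation estimated by edgeR was 0.234 to 0.255 for the 4 arms and 0.312 at the median of the 370.

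Over the 9 libraries the log2 levels of the 4 arms followed one another, with Pearson correlations of 0.94 to 0.99 between pairs. These points share libraries, depth and stage and are given as a description. Outside the family, the miRNAs most like chi-miR-30a-5p by Pearson correlation of log2 CPM over the 9 libraries were, under TMM, 3 predicted ones, NC_030814.1_9711 (0.97), NC_030810.1_4301 (0.96) and NC_030826.1_25423 (0.95), which ranked 1st, 3rd and 6th with library size only and 2nd, 7th and 4th by Spearman correlation. All were far less abundant, the highest of them, NC_030810.1_4301, having 64.3 CPM in LG against 25.2 in LL and 3.35 in DP. The miRNAs most like chi-miR-30f-5p were chi-miR-92b (0.95), chi-miR-200a (0.94) and chi-miR-92a-3p (0.92), which ranked 2nd, 1st and 4th with library size only and 1st, 7th and 7th by Spearman correlation. Chi-miR-200a, which is also one of the epithelial markers below, had 10395, 6617 and 3252 CPM in LG, LL and DP, a 3.20-fold span between LG and DP.

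Marker miRNAs of the cell types a gland can hold are given beside these values. The 5 epithelial markers found of 6 listed (chi-miR-200a, chi-miR-200b, chi-miR-200c, chi-miR-141 and chi-miR-429, with miR-205 not found) summed to between 34218 and 37559 CPM in LG libraries, 34893 and 42110 in LL and 13064 and 20811 in DP. By edgeR, 3 of the 5 were called lower in DP vs. LG (background 9.91%) and 5 of 5 in DP vs. LL (background 11.6%). The DP vs. LG count was 5 of 5 with DESeq2, with each of the 3 other scalings and with either other filter. It stayed 3 of 5 with limma-voom, with only DP and LG in the fit and with replicate number as a block. The DP vs. LL count was 0 of 5 with library size only, with 4 at an unadjusted p under 0.05, and 5 of 5 with DESeq2 and limma-voom. In LL vs. LG edgeR called 0 of 5 (background 12.8%), with 2 at an unadjusted p under 0.05, and DESeq2 and limma-voom called 0 of 5. With library size only the sums lay between 40684 and 48012 CPM in LG, 26261 and 38747 in LL and 13357 and 24250 in DP, and 2 of the 5 were called lower in LL than in LG (background 12.9% at that scaling). Immune markers (4 of 5 found) summed to between 406 and 637 CPM in LG, 893 and 1265 in LL and 1244 and 2398 in DP. With library size only LG (522 to 757 CPM) and LL (672 to 946 CPM) overlapped. By edgeR all 4 were called higher in DP than in LG, where the background was 21.6%. Of the 4, 1 was called higher in DP than in LL (background 15.1%) and 2 in LL than in LG (background 8.91%). Muscle markers (5 of 5) lay between 419 and 530 CPM in LG, 720 and 932 in LL and 971 and 3444 in DP, and with library size only LG (519 to 630 CPM) and LL (574 to 701 CPM) overlapped. By edgeR 2 of 5 were called higher in DP than in LG (background 21.6%) and 1 of 5, chi-miR-206, higher in DP than in LL (background 15.1%). Red blood cell markers (2 of 3) had 86.3 to 166, 363 to 549 and 122 to 1283 CPM, with 1 of 2 called higher in DP than in LG (background 21.6%). The stromal ones (4 of 4) summed to 56037 to 64292, 75842 to 122833 and 44455 to 146040 CPM, most of it chi-miR-143-3p. Of these 4, 2 were called higher in DP than in LG (background 21.6%), and the same 2 higher in DP than in LL (background 15.1%). They were chi-miR-199a-3p, with means of 3302 CPM in LG, 5274 in LL and 19786 in DP, and chi-miR-214-3p, with 67.0, 66.8 and 451 CPM. The other 2 were called in no comparison, chi-miR-143-3p with means of 55514, 82771 and 61292 CPM and chi-miR-145-5p with 2532, 5447 and 3333 CPM. The endothelial chi-miR-126-3p had 14550 to 16182, 15651 to 22666 and 18740 to 31555 CPM in LG, LL and DP and was called in no comparison, and with library size only LG (17299 to 20753 CPM) lay above LL (11658 to 17059 CPM). The part of these lists in the stage differences of the 4 arms was not tested.

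Counted per 100 reads of the epithelial list in the same library, a ratio chosen after its values were seen, LG lay above LL without overlap for all 4 arms, and LL lay above DP without overlap for the 3p arms. The differences between the arms in these ratios were not tested. Chi-miR-30a-5p had 136, 126 and 123 such reads in LG, 57.8, 39.9 and 63.2 in LL, and 15.9, 19.4 and 44.2 in DP. Its mean was 53.6 ± 12.2 in LL and 26.5 ± 15.4 in DP (SD, n = 3 each), and replicate 3 of DP alone exceeded the lowest LL library. Chi-miR-30f-5p had 6.86, 6.24 and 5.11 in LG, 2.35, 2.73 and 2.29 in LL, and 1.93, 2.64 and 3.40 in DP, so LL and DP lay in one range below LG. Chi-miR-30a-3p had 3.93, 3.27 and 3.13 in LG, 1.34, 1.39 and 1.84 in LL, and 0.755, 1.07 and 1.11 in DP. Chi-miR-30f-3p had 0.527, 0.485 and 0.416 in LG, 0.177, 0.146 and 0.194 in LL, and 0.0863, 0.0710 and 0.138 in DP. For both 3p arms the 3 stages kept separate ranges.

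**Figure D5:**
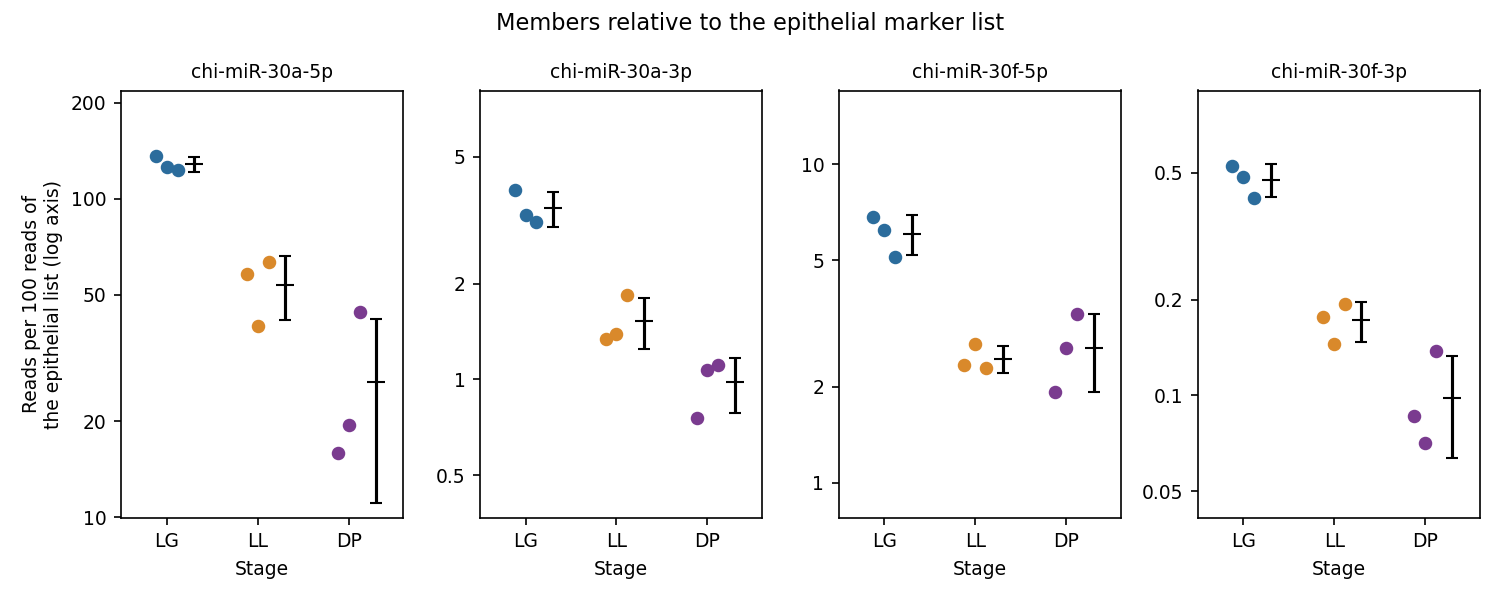
Reads of each of the 4 arms per 100 reads of the 5 epithelial markers in the same library, on log axes that span the same fold in every panel. Points are libraries, and bars show the mean and SD of 3 libraries per stage. LG lies above LL and DP in every panel, while LL and DP overlap for both 5p arms.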

How the data were processed

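The deposited values were counts of reads for each mature miRNA, which the authors obtained by trimming, alignment to the goat assembly ARS1.2 and counting over known and predicted miRNAs with miRDeep2, and the submitters' processing notes name FastQC 0.11.9, cutadapt 4.2 and Bowtie 1.1.1. In the deposited table, LL replicate 3 was taken as an expected count column, because its values for 2 predicted miRNAs were not whole, and it was rounded. The FPKM filter and the RUVSeq check of the study were not applied.

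A miRNA was kept if 3 or more libraries reached 0.5 CPM, and tested with edgeR 4.0.16 (R 4.3.3): TMM, 1 quasi-likelihood fit of all 9 libraries with stage as the term, and Benjamini-Hochberg adjustment over all 696. Standard errors were the absolute log2 fold change divided by the square root of F. The script was tested on simulated data. Exact permutation tests were used for the summed level of 3 other 5p arms and for the arm ratios of mir-30b, mir-30c and mir-30e (0.5 added to each count). P-values measure the spread between goats.

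The members and marker lists were chosen with earlier results of these data known. Named were the 4 arms, all other miR-30 arms, the 3 non-family miRNAs most correlated with each 5p arm, chi-miR-148a-3p and the marker lists, each marker being the row of its name with the most counts. Alternatives used DESeq2 1.42.0, limma 3.58.1, other scalings, filters and libraries. Gene positions came from RefSeq on ARS1.2.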

Additional observations from a re-analysis of the deposited data

How the results depend on the processing

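The log2 fold changes of the 4 arms were below 0 in 228 of 228 estimates, the ones given above and all alternatives. Among the alternatives other than leaving out a library, those that moved an estimate by more than the spread between replicates were these. With library size only, it was −3.14 (30a-3p) and −2.53 (30f-5p) in DP vs. LG, −1.87 (30a-5p), −1.43 (30a-3p), −0.74 (30f-5p) and −1.60 (30f-3p) in DP vs. LL, and −1.83 (30a-5p), −1.71 (30a-3p), −1.79 (30f-5p) and −2.01 (30f-3p) in LL vs. LG. With chi-miR-148a-3p left out, it was −3.23 (30a-3p), −2.63 (30f-5p) and −3.71 (30f-3p) in DP vs. LG, and −1.43 (30a-5p) and −1.62 (30f-3p) in LL vs. LG. With DESeq2 it was −2.53 (30f-5p) in DP vs. LG, and −1.42 (30a-5p) and −1.62 (30f-3p) in LL vs. LG. Without a filter it was −3.83 (30a-5p), −3.30 (30a-3p), −2.69 (30f-5p) and −3.77 (30f-3p) in DP vs. LG, and −1.55 (30a-5p), −1.46 (30a-3p), −1.56 (30f-5p) and −1.75 (30f-3p) in LL vs. LG. Keeping miRNAs of 10 or more counts in each library gave −3.80 (30a-5p), −3.29 (30a-3p), −2.68 (30f-5p) and −3.76 (30f-3p) in DP vs. LG, and −1.48 (30a-5p), −1.39 (30a-3p), −1.49 (30f-5p) and −1.68 (30f-3p) in LL vs. LG. With only the 2 stages compared it was −1.45 (30a-5p), −1.36 (30a-3p) and −1.65 (30f-3p) in LL vs. LG, and with upper-quartile scaling −1.57 (30f-3p). The cause was not tested.

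Leaving out each library in turn gave −4.00 to −3.44 (30a-5p), −3.19 to −2.93 (30a-3p), −2.58 to −2.32 (30f-5p) and −3.73 to −3.40 (30f-3p) in DP vs. LG, −2.59 to −2.04 (30a-5p), −1.87 to −1.72 (30a-3p), −1.19 to −0.92 (30f-5p) and −2.17 to −1.79 (30f-3p) in DP vs. LL, and −1.5 to −1.25 (30a-5p), −1.40 to −1.18 (30a-3p), −1.55 to −1.27 (30f-5p) and −1.71 to −1.5 (30f-3p) in LL vs. LG. Of these estimates, 28 moved by more than the spread between replicates and 80 did not. In LL vs. LG the estimate given above for each arm, −1.23 (30a-5p), −1.13 (30a-3p), −1.24 (30f-5p) and −1.43 (30f-3p), was weaker than the whole range. In DP vs. LG the same held for 30a-3p, at −2.92, and 30f-5p, at −2.32, was at the weak end of its range.

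Levels moved with the scaling by construction. With library size only the means in LG were 56424 (30a-5p), 1509 (30a-3p), 2648 (30f-5p) and 208 (30f-3p) CPM, and in LL 15912 (30a-5p), 462 (30a-3p) and 51.7 (30f-3p) CPM. With chi-miR-148a-3p left out they were, in CPM, 84639, 2269, 3995 and 313 for LG, 31504, 903, 1485 and 102 for LL, and 6193, 242, 647 and 23.9 for DP, for 30a-5p, 30a-3p, 30f-5p and 30f-3p. The number of miRNAs ordered DP, LL, LG without overlap was 14, and 22, 23 and 26 with upper-quartile scaling, library size only and chi-miR-148a-3p left out. Arm ratios and shares from summed counts moved by less than the spread between replicates.

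Among all tested miRNAs, 219, 186 and 89 were called in DP vs. LG, DP vs. LL and LL vs. LG. With only LL and LG in the fit the last count was 141, and leaving out a library gave 33 to 125, namely 33 and 36 when replicate 1 or 2 of LL was left out and 54 and 41 when replicate 1 or 3 of LG was. In DP vs. LG, 150 were higher and 69 lower in DP, against 116 and 85 with library size only and 113 and 99 with chi-miR-148a-3p left out. In DP vs. LL the split was 105 and 81, against 165 and 59, and 81 and 94, and in LL vs. LG 62 and 27, against 30 and 90, and 48 and 43. The exact permutation p of the summed other 5p arms, 0.0143, was 0.0679 with library size only and 0.00714 to 0.0643 with a library left out, of which LL replicate 2 (0.0643) and DP replicate 2 (0.0536) took it past 0.05.

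The replicate block gave 222, 170 and 88 calls, and the 4 arms' log2 fold changes kept their size under it. The correlation of same-numbered libraries ranged from −0.101 to 0.214 over 9 pairs, and 6 of 9 libraries were most like another of their own number. Not every pair passed a correlation of 0.1. The goats differed between stages and no label gives a pairing, and whether the numbers carry any pairing was not tested. Counting alone gave at most 5.53% of variation for any of the 4 arms in a stage, and for chi-miR-30f-3p in LL it gave 3.16% where 4.83% was measured.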
